A study of Mus musculus and Homo sapiens with 8 samples.

Results

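Arginine is the substrate of both nitric oxide synthase and arginase. The 7 mouse genes described here encode enzymes and a transporter on these routes: Nos2, Arg1, Arg2, Ass1, Asl, Slc7a2 and Odc1. They were picked by symbol, and all 7 had a row among the 25668 gene rows of the mouse table. Their osteoclast against macrophage values were known when they were picked, so those values are given as a description and carry no test. Total RNA was sequenced in a study that, by its title, concerned stromal glutamine in bone and PARP inhibitor resistance of tumours. Of the mouse libraries, 3 came from osteoclasts, the multinucleated cells that resorb bone. These were formed under 100 ng/ml of the osteoclast-inducing cytokine RANKL in addition to M-CSF, a macrophage growth factor, at 50 ng/ml. They were set against 3 libraries of bone marrow macrophages that had M-CSF at 50 ng/ml and no RANKL. Both groups came from marrow of 6-week-old wild-type C57BL/6 mice, carried no further treatment, and started from non-adherent cells given M-CSF for 2 days. The labels do not say whether replicates came from separate animals or cultures, nor for how many days RANKL was given. So the p-values given for other genes rest on the spread among these libraries alone, and that spread may be technical. A further 2 libraries were of the established human breast cancer line MDA-MB-231, kept for 3 days in 40 µM olaparib or in DMSO.

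As background, inducible nitric oxide synthase turns arginine into nitric oxide and citrulline. Argininosuccinate synthase and argininosuccinate lyase turn citrulline back into arginine, and arginase splits arginine into urea and ornithine. Ornithine decarboxylase then commits ornithine to polyamine synthesis. In macrophages, Nos2 is a textbook marker of the response to microbial products and interferon gamma, and Arg1 of the response to interleukin-4, and both enzymes draw on the same arginine pool.

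A pair of the 7 genes are paralogues, cytosolic arginase (Arg1) and mitochondrial arginase (Arg2), so a stretch of each coding sequence is shown to see how far reads of one could be taken for the other. The capitals mark the longest run of bases that the coding sequences share, with 18 bases on either side, from GENCODE M21 transcripts on GRCm38. Arg1 lies at chr10:24916783-24916830 on the minus strand and Arg2 at chr12:79150771-79150818 on the plus strand, both inside 1 coding exon.
Arg1: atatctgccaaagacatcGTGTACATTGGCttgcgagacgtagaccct
Arg2: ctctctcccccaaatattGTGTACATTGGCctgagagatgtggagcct
The run was 12 bases long, within coding sequences of 969 bases for Arg1 and 1062 bases for Arg2. The longest run that Nos2 shared with a paralogue was 22 bases, with Nos3, and Slc7a2 shared 23 bases with Slc7a1.

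The libraries held 18161451 to 22587509 counts in osteoclasts and 16743849 to 21386319 counts in macrophages, and 3 counts were worth 0.144 to 0.178 and 0.13 to 0.166 CPM, the count relative to the TMM-scaled library size. All 10 osteoclast markers listed for the check of the labels, among them cathepsin K and the calcitonin receptor, were called higher in osteoclasts. Of all tested genes, 32.3% were called higher and 31.4% lower. The osteoclast markers had a summed level of 11773.3 to 12325.4 CPM against 56.5 to 60.7 CPM in macrophages. Among them Calcr, Ocstamp, Car2 and Oscar passed the filter on low counts only through the osteoclast libraries. Of the 8 macrophage markers, 4 were higher and 4 lower. They summed to 42304.1 to 45379.1 CPM in osteoclasts and 21721.2 to 22639.6 CPM in macrophages, most of it Lyz2. Of 10 neutrophil markers, 7 had a row, with summed levels of 40.4 to 42.7 CPM in osteoclasts and 26.4 to 28.1 CPM in macrophages. Elane, Mpo, S100a9 and Cxcr2 each stayed at no more than 10 counts over the 6 libraries, but S100a8 had 306, 297 and 332 counts in osteoclasts and 0, 4 and 3 in macrophages, and Camp 10, 12 and 4 in osteoclasts and 0, 0 and 3 in macrophages. Erythroid and platelet markers summed to 130.9 to 144.9 CPM in osteoclasts and 44.7 to 46.0 CPM in macrophages, most of it Pf4. The sums in osteoclasts and macrophages were 0.855 to 1.2 and 9.84 to 12.9 CPM for lymphoid markers, 1.48 to 2.26 and 2.95 to 4.04 CPM for dendritic markers, and 26.7 to 29.1 and 43.8 to 48.8 CPM for endothelial markers. The part of these cells in the results was not tested. Stromal and osteoblast transcripts, summed over 9 genes, came to 24.2 to 38.5 CPM in osteoclasts. In macrophage libraries 1, 2 and 3 they came to 414.7, 19.3 and 14.5 CPM, so that macrophage library 1 stood apart. Of the 6 tested, 1 was called higher in osteoclasts and 4 lower. Dcn had 162, 172 and 246 counts in osteoclasts and 12, 0 and 0 in macrophages, and passed the filter only through the osteoclast libraries. Osteoclast library 2 stood apart by the nuclear RNA Malat1, with 4157.7 CPM against 1423.8 and 1464.2 CPM in the other osteoclast libraries and 1104.6 to 1272.0 CPM in macrophages. In bulk RNA, fewer cells of a type and less RNA per cell cannot be told apart, and an osteoclast culture may still hold macrophages.

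Nos2 was nearly silent in macrophages and abundant in osteoclasts. It spans 11:78920787 to 78960254 on the plus strand of mm10 and encodes the inducible nitric oxide synthase. Osteoclast libraries 1, 2 and 3 held 7681, 7311 and 9679 counts, against 4, 4 and 3 counts in macrophage libraries 1, 2 and 3. On the CPM scale the osteoclasts had 438.0, 434.6 and 463.6, and the macrophages 0.221, 0.173 and 0.138. The osteoclast libraries sat close together and far above every macrophage library, where the level was at about the worth of 3 counts. The fitted log2 fold was 11.26 (SE 0.085), the 5th highest of 13247 genes tested, and 10.02 with limma and a prior count of 5. Nos2 passed the filter on low counts only through the osteoclast libraries. With 24671 counts in osteoclasts and 11 in macrophages, the ratio of library-scaled sums was 2552.3 with a 95% counting interval of 1426.2 to 5113.4, which covers counting error only.

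**Figure D1:**
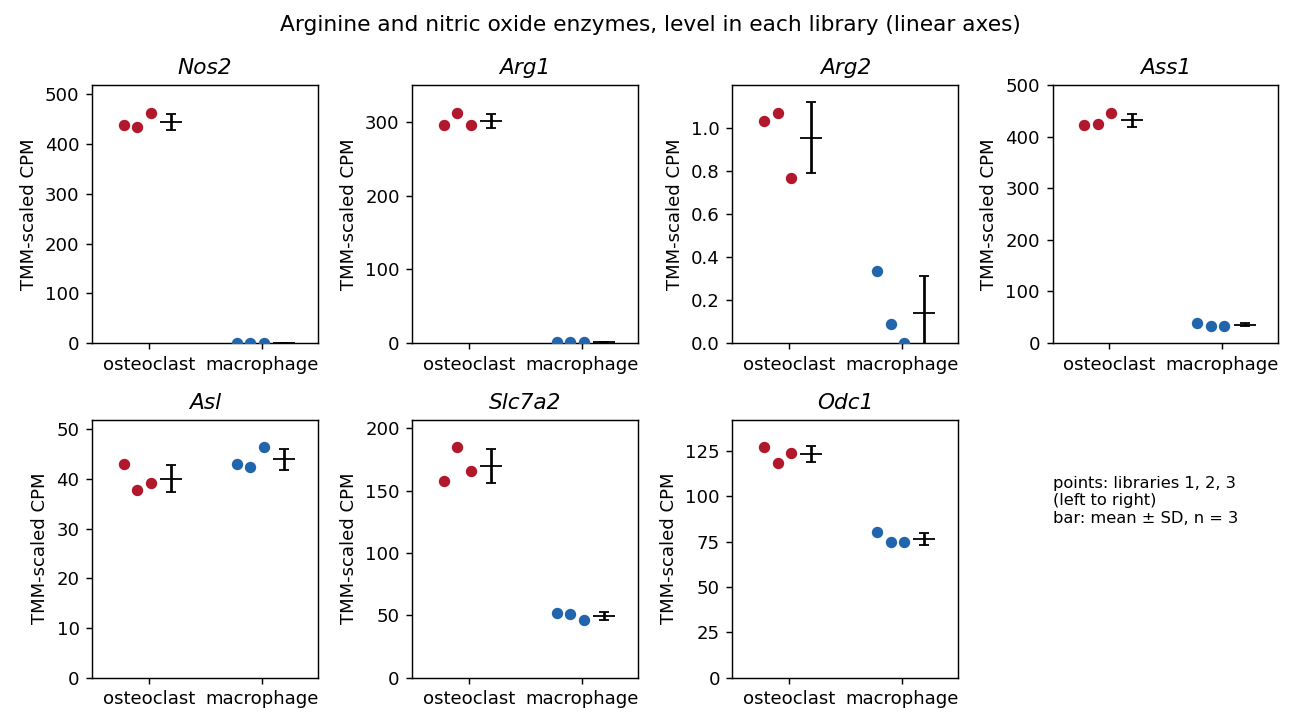
TMM-scaled CPM of each gene in the 3 osteoclast (red) and 3 macrophage (blue) libraries on linear axes, with the mean and SD of each group (n = 3). Nos2, Arg1 and Ass1 show the widest gaps, Slc7a2 and Odc1 narrower ones without overlap, Arg2 stays near 1 CPM or less, and the groups overlap for Asl.

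Arg1, the cytosolic arginase, was also scarce in macrophages and abundant in osteoclasts. It lies at 10:24915221 to 24927484 on the minus strand. The osteoclast libraries held 5192, 5263 and 6181 counts and the macrophage libraries 31, 29 and 33. This came to 296.0, 312.8 and 296.1 CPM in osteoclasts and 1.71, 1.26 and 1.52 CPM in macrophages. The groups did not overlap, and the log2 fold was 7.66 (SE 0.069), the 50th highest of the genes tested. Nos2 and Arg1, the textbook pair of opposed activation markers, were thus both higher in the same 3 osteoclast libraries. Which cells of a culture held each transcript was not resolved.

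Arg2, the mitochondrial arginase at 12:79130777 to 79156301 on the plus strand, stayed scarce in both groups. It had 18, 18 and 16 counts in osteoclasts and 6, 2 and 0 in macrophages. The ratio of the summed counts was 7.40 (95% counting interval 3.49 to 18), and the groups did not overlap. Arg2, like Nos2, passed the filter only through the osteoclast libraries, and its SE was the largest of the 7. The fitted log2 fold was 2.82 (SE 0.618) and became 4.23 without macrophage library 1 and 2.23 without macrophage library 3, and 1.7 with limma. Exons of Vti1b and Gm48780 overlap 401 bases of Arg2 on the opposite strand. Vti1b, a vesicle fusion gene, had 66.6 to 70.8 CPM in osteoclasts and 51.9 to 57.1 CPM in macrophages. No source used here says whether strand was used in counting, and reads of the overlap cannot be told apart. Per kilobase of annotated exon, Arg1 exceeded Arg2 by 184.9 to 247.6 times in osteoclasts. In macrophage library 1, the only macrophage library with over 3 Arg2 counts, the ratio was 3.31.

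The enzymes that rebuild arginine from citrulline did not move together. Ass1, argininosuccinate synthase, which is usually the rate-limiting enzyme of the pair, lies at 2:31470207 to 31520672 on the plus strand. It had 423.4, 425.5 and 447.2 CPM in osteoclasts, against 39.2, 33.1 and 33.5 CPM in macrophages. The groups lay far apart, with a log2 fold of 3.62 (SE 0.058). Asl, argininosuccinate lyase, at 5:130011258 to 130029247 on the minus strand, had 43.0, 37.9 and 39.2 CPM in osteoclasts and 43.1, 42.5 and 46.4 CPM in macrophages. Osteoclast library 1 fell within the macrophage values and the other osteoclast libraries lay below them, and the log2 fold was -0.14 (SE 0.066). With equal totals, that is with scaling by total counts in place of TMM, it was -0.35, and the median gene also moved by -0.22. Per kilobase of annotated exon, Ass1 exceeded Asl 19.7, 22.5 and 22.8 times in the osteoclast libraries, and 1.82, 1.56 and 1.45 times in the macrophage libraries. Per kilobase of coding length, the mean in osteoclasts was 349.5 CPM for Ass1 and 27.2 CPM for Asl. In macrophages it was 28.5 CPM for Ass1 and 29.9 CPM for Asl, with overlapping ranges, so the macrophage excess of Ass1 depends on the length used.

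Slc7a2 encodes CAT2, a cationic amino acid transporter that carries arginine into cells. Its isoforms of low and high affinity are not separated in a table per gene symbol. The gene lies at 8:40862396 to 40922308 on the plus strand. Osteoclast libraries had 157.9, 184.7 and 165.9 CPM and macrophage libraries 52.1, 51.1 and 45.9 CPM, without overlap. The log2 fold was 1.77 (SE 0.062). Library 2, which stood apart by Malat1, was the highest osteoclast library for Slc7a2, and without it the log2 fold was 1.71. Exons of Gm26584 overlap 635 bases of Slc7a2 on the other strand, and Gm26584 itself did not exceed 0.357 CPM in any library.

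Odc1, ornithine decarboxylase, at 12:17544794 to 17551505 on the plus strand, was already well expressed in macrophages. It had 127.0, 118.6 and 123.9 CPM in osteoclasts, against 80.4, 74.6 and 74.9 CPM in macrophages. Each osteoclast library exceeded each macrophage library. The log2 fold was 0.69 (SE 0.044), the smallest of the 6 genes that were higher, and 0.47 with equal totals.

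In the fit over all genes, 63.7% of 13247 genes were called at an adjusted p below 0.05, with 32.3% of all tested genes higher and 31.4% lower in osteoclasts. All 7 genes passed the filter, Nos2 and Arg2 only through the osteoclast libraries. In that fit 6 of the 7 were called higher while Asl was not called. The groups failed to overlap with osteoclasts higher for the same 6 genes, as they did for 34.2% of all genes, and with osteoclasts lower for 33.9% of all genes. With equal totals and on the deposited scale 6 were called higher as well. Of all 13247 genes tested, 2625 were called higher with equal totals and 1800 on the deposited scale. Since the genes were picked with this comparison known, nothing is read from any of these counts. Together the 7 genes took 0.138 to 0.142% of the counts in osteoclasts and 0.0217 to 0.0234% in macrophages.

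**Figure D2:**
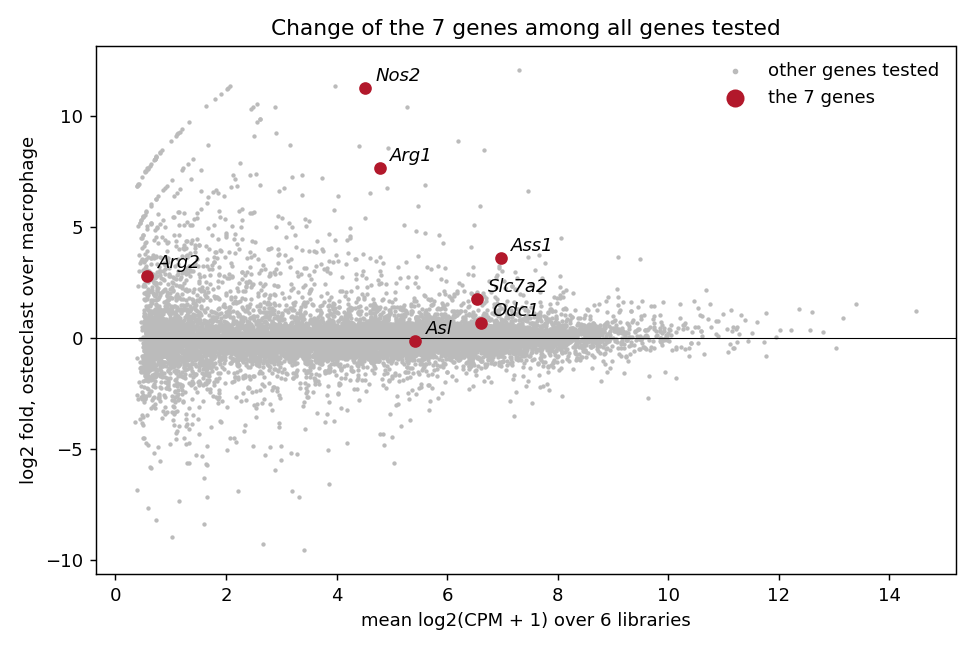
Log2 fold of osteoclasts over macrophages against mean log2(CPM + 1) over 6 libraries, for the 7 genes (red) and all other genes tested (grey). Nos2 at 11.26 and Arg1 at 7.66 lie far above the bulk of genes, followed by Ass1 at 3.62, while Odc1 at 0.69 and Asl at -0.14 lie within it.

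The levels were put in order per kilobase of annotated exon, since levels of different genes compare only per length. In osteoclasts Ass1 was highest at 179.0 ± 5.44 CPM per kb (SD, n = 3), followed by Arg1 at 135.4 ± 4.35 and Nos2 at 100.9 ± 3.60. Odc1 had 36.2 ± 1.26, Slc7a2 18.6 ± 1.5, Asl 8.29 ± 0.551 and Arg2 0.668 ± 0.115 CPM per kb. None of these neighbours overlapped between libraries. In macrophages the order began with Odc1 at 22.5 ± 0.952, Ass1 at 14.6 ± 1.40, Asl at 9.11 ± 0.439 and Slc7a2 at 5.44 ± 0.362 CPM per kb. Arg1 followed at 0.672 ± 0.103, Arg2 at 0.0977 ± 0.121 and Nos2 at 0.0403 ± 0.00944 CPM per kb. The Nos2 range, 0.0313 to 0.0501, lay within that of Arg2, 0 to 0.232, so the order of these last genes is not settled. Among 13178 genes with a length, Nos2 ranked 467th in osteoclasts and 12986th in macrophages. Arg1 ranked 340th in osteoclasts and 11039th in macrophages, and Ass1 252nd in osteoclasts and 3136th in macrophages. Per kilobase of coding length Slc7a2 (73.1 to 85.4) overlapped Odc1 (81.0 to 86.8) in osteoclasts. In macrophages the coding length put Asl at 29.9 ± 1.44, beside Ass1 at 28.5 ± 2.73 CPM per kb, with overlapping ranges.

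**Figure D3:**
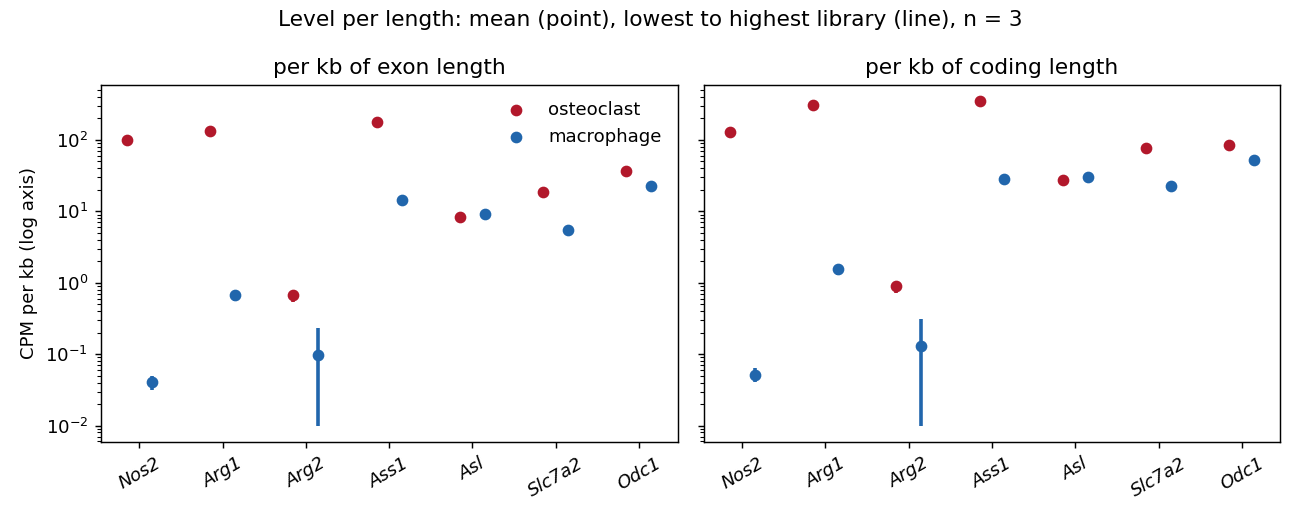
Mean CPM per kb of exon length (left) and coding length (right) on a log axis for osteoclasts (red) and macrophages (blue), with lines from the lowest to the highest library. The Arg2 line in macrophages is drawn down to 0.01 because 1 library had 0 counts. In osteoclasts Ass1, Arg1 and Nos2 lead, and in macrophages Nos2, Arg2 and Arg1 come last.

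The spread within a group was small for the abundant genes. The coefficient of variation in osteoclasts was 3.57% for Nos2, 3.21% for Arg1, 3.04% for Ass1 and 3.47% for Odc1, and it was 6.65% for Asl and 8.10% for Slc7a2. In macrophages it was 4.23% for Odc1 and 4.82% for Asl, but 23.5% for Nos2 and 15.3% for Arg1, which rest on few counts there. The Nos2 to Arg1 ratio per kilobase of annotated exon was 0.747, 0.701 and 0.791 in the osteoclast libraries, and 0.0652, 0.0697 and 0.0459 in the macrophage libraries. Per kilobase of coding length the gap was wider, with a mean in osteoclasts of 129.8 CPM for Nos2 and 311.3 CPM for Arg1. In macrophages these means were 0.0517 CPM for Nos2 and 1.55 CPM for Arg1.

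Of 73 other genes of arginine, nitric oxide, urea, creatine, proline and polyamine metabolism, 60 were tested, and 24 rose, 16 fell and 20 did not pass the test. Thus 66.7% were called, near the 63.7% of all genes, with a median log2 fold of 0.13, while that of all genes was 0.0. The balance depends on scaling: with equal totals 12 rose and 21 fell, and on the deposited scale, with no further scaling of the counts, 7 rose and 15 fell. Over all 13247 genes tested, 2625 were higher and 6445 lower with equal totals, and 1800 were higher and 3790 lower on the deposited scale. These are also the background for the counts per list given on those scales. Counts per list below are on the TMM scale, where 32.3% of all tested genes were higher and 31.4% lower. The lists were chosen with earlier results of these data known, so their counts are given as a description.

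Among 9 tested partners of nitric oxide synthase and enzymes of its cofactor tetrahydrobiopterin, 2 rose, 4 fell and 3 did not pass. The number that rose was 4 without osteoclast library 2, and 1 without osteoclast library 1 or 3 or macrophage library 1. It was also 1 with equal totals, with upper-quartile scaling and on the deposited scale. Gch1, GTP cyclohydrolase, the first enzyme of cofactor synthesis, rose by 1.69 log2 (SE 0.0688, adjusted p = 1.29e-10), with 73.8 ± 4.74 CPM in osteoclasts and 22.9 ± 1.29 CPM in macrophages. Qdpr, which regenerates the cofactor, was called higher by 0.19 (adjusted p = 0.0245) but turned to -0.02 with equal totals. That call was also lost without osteoclast library 1 or 3 or macrophage library 1, at adjusted p-values of 0.0578, 0.0772 and 0.0855. It was lost too on the deposited scale, at a log2 fold of 0.0026, and with upper-quartile scaling, at 0.16. Nostrin, a trafficking protein of the endothelial synthase, fell by 0.62. Of the other synthases, Nos1, the neuronal form, had 3, 3 and 8 counts in osteoclasts and 33, 24 and 16 in macrophages (log2 fold -2.20, adjusted p = 0.00125). It passed the filter on low counts only through the macrophage libraries, where it was higher. Nos3, the endothelial form, had 5, 3 and 7 counts in osteoclasts and 1, 1 and 8 in macrophages and did not reach the filter.

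Among 9 tested genes of the response to nitric oxide and of methylarginines, the arginine derivatives that inhibit the synthases, 4 rose, 2 fell and 3 did not pass. With equal totals 2 rose and 4 fell, and on the deposited scale 1 rose and 2 fell. Pde5a, which breaks down the second messenger cGMP, rose by 2.84 log2 (SE 0.209, adjusted p = 6.22e-08), with 5.28 ± 0.343 CPM in osteoclasts and 0.732 ± 0.118 CPM in macrophages. Prkg1, a kinase activated by cGMP, fell by 2.6 and had 0.342 ± 0.168 CPM in osteoclasts and 2.12 ± 0.239 CPM in macrophages. Only the macrophage libraries carried Prkg1 past the filter on low counts. Ddah2, a relative of the methylarginine hydrolase Ddah1, fell by 1.73 (adjusted p = 6.51e-07). The arginine methyltransferases Prmt1 and Prmt2 rose by 0.43 and 0.30, calls lost on the deposited scale at 0.24 and 0.11, and for Prmt2 also with equal totals at 0.08.

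Of 10 tested genes of arginine transport and sensing, 3 rose and 2 fell, while on the deposited scale 1 rose and 2 fell. Slc7a1, the constitutive arginine transporter CAT1, rose by 0.64 log2 (SE 0.0677, adjusted p = 2.19e-06), with 86.9 ± 5.73 CPM in osteoclasts and 55.6 ± 5.09 CPM in macrophages. Slc7a7, an exchanger that exports arginine, rose by 0.54, a call lost on the deposited scale at 0.36. Its partner chain Slc3a2 was called higher by 0.19 but was at -0.03 with equal totals and at -0.0012 on the deposited scale. Slc38a9, the lysosomal arginine sensor, fell by 0.50, and Pqlc2, a lysosomal exporter of cationic amino acids, fell by 0.22, a call lost without osteoclast library 1 or macrophage library 2 or 3 (adjusted p = 0.0948, 0.069 and 0.0662).

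Of 6 tested urea cycle and creatine genes, 2 rose and 3 fell, while on the deposited scale 1 rose and 3 fell. Gatm, which joins arginine and glycine in the first step of creatine synthesis, fell by 2.72 log2 (SE 0.0586, adjusted p = 2.42e-13), with 14.9 ± 0.444 CPM in osteoclasts and 98.2 ± 2.30 CPM in macrophages. Gamt, the second step, fell by 0.27, a call lost without osteoclast library 2 or macrophage library 3 (adjusted p = 0.056 and 0.121). Ckb, brain-type creatine kinase, rose by 0.67. The mitochondrial aspartate carriers split, with Slc25a12 higher by 0.50 (0.31 and not called on the deposited scale) and Slc25a13 lower by 0.51. Cps1, which starts the hepatic urea cycle, had 1 count in the 6 libraries together.

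Ornithine can also pass to proline and glutamate. Of 8 tested genes of that route, 2 rose, 2 fell and 4 did not pass, with small folds. The number that fell was 1 on the deposited scale, with DESeq2 or without macrophage library 3. Oat, ornithine aminotransferase, had a log2 fold of -0.01 and was not called. Prodh, proline dehydrogenase, fell by 0.68 (adjusted p = 0.00277). Aldh4a1, of proline breakdown, and Got2, the mitochondrial aspartate aminotransferase, rose by 0.32 and 0.23. Both calls were lost on the deposited scale, at 0.13 and 0.04, and with equal totals, at 0.11 and 0.01.

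Of 18 tested polyamine and hypusine genes, 11 rose, 3 fell and 4 did not pass, where 32.3% of all tested genes were higher and 31.4% lower. With equal totals 5 rose, and on the deposited scale 3 rose, with 3 falling under either. Smox, spermine oxidase, rose by 0.95 log2 (SE 0.0421, adjusted p = 2.96e-10), with 108.0 ± 0.357 CPM in osteoclasts and 55.7 ± 1.51 CPM in macrophages. Eif5a, the translation factor that carries the spermidine-derived residue hypusine, rose by 0.76, with 676.1 ± 34.1 CPM in osteoclasts and 398.5 ± 9.44 CPM in macrophages. The antizyme inhibitors, which free ornithine decarboxylase from its antizyme, moved apart. Azin2 rose by 0.81 (adjusted p = 0.000162), and Azin1, far more abundant, fell by 0.55 (adjusted p = 2.93e-08), with 166.9 ± 3.74 CPM in osteoclasts and 243.8 ± 10.2 CPM in macrophages. Paox, acetylpolyamine oxidase, fell by 1.61, and Atp13a3, a polyamine transporter, fell by 0.37.

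**Figure D4:**
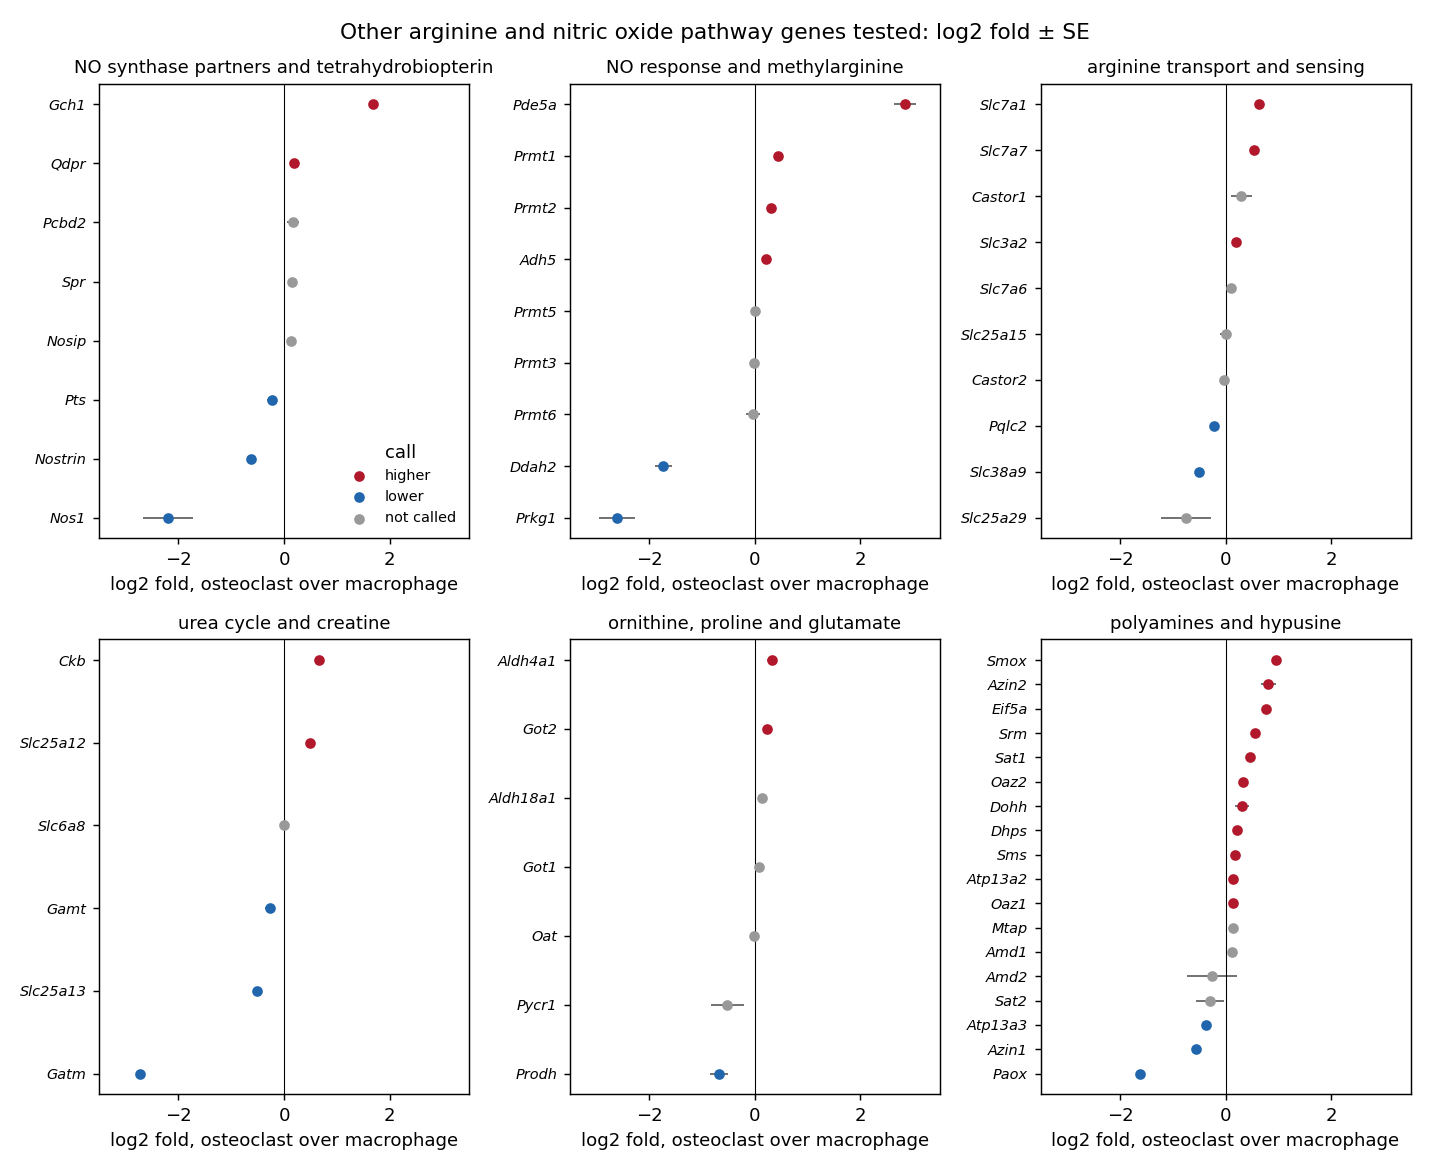
Log2 fold of osteoclasts over macrophages with its SE for 58 of the 60 tested genes of the 6 pathway lists, coloured by call (red higher, blue lower, grey not called). Gch1 and Pde5a lie farthest to the right, and Gatm, Prkg1 and Nos1 farthest to the left, while most genes lie within 1 log2 of 0.

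Genes often measured beside Nos2 or Arg1 in activated macrophages were counted in a pair of lists. Of 14 tested genes of classical activation, 12 rose and 2 fell, with a median log2 fold of 1.11, where 32.3% of all tested genes were higher and 31.4% lower. On the deposited scale 9 rose and 1 fell. Acod1, the itaconate-producing enzyme, rose by 6.64 (SE 0.071, adjusted p = 7.05e-16), with 1719.6 ± 42.0 CPM in osteoclasts and 17.2 ± 1.39 CPM in macrophages. Il1b rose by 4.67 and the prostaglandin synthase Ptgs2 by 4.11, while the interferon factors Irf1 fell by 0.23 and Irf5 fell by 0.17, the Irf5 call being lost on the deposited scale. Il1b had only 9, 15 and 7 counts in macrophages and passed the filter on low counts only through the osteoclast libraries. It is among the 12 that rose. Of 12 tested genes of alternative activation, 4 rose and 5 fell while 3 were not called, and the median was 0.04. On the deposited scale 2 rose and 5 fell. Chil3, a chitinase-like protein usually seen with Arg1, had 1 count in the 6 libraries. The chemokine Ccl22 rose by 2.6, Klf4 by 1.05 and transglutaminase Tgm2 by 0.33 (not called on the deposited scale). Irf4 fell by 4.53, the lipid regulator Pparg fell by 4.1 and Il10 fell by 1.57. Irf4 passed the filter on low counts only through the macrophage libraries. Both lists were chosen with earlier results of these data known, so nothing is read from their counts. The difference between the lists was not tested.

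The tested genes closest to each of the 7 in pattern were found by the Euclidean distance between profiles of log2(CPM + 1) over the 6 libraries, each centred on its mean. Nos2 lay nearest to the osteoclast acid phosphatase Acp5 (0.199) and to cathepsin K, Ctsk (0.785). Arg1 lay nearest to Acod1 (0.562) and the acute-phase gene Saa3 (0.736). The nearest to Ass1 were the chemokine Ccl2 (0.118) and the zinc transporter Slc39a4 (0.126). Slc7a2 was nearest to Hmcn2 and Lipn, Odc1 to Twf1 and Wsb2, Asl to Tmem185a and Scpep1, and Arg2 to Pkp2 and Pde4dip. The added 1 pulls in genes with low macrophage levels, so the fitted folds differ more, 11.26 for Nos2 and 8.86 for Acp5. With 2 groups of 3, likeness is set mainly by the gap between the groups.

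RefSeq promoters on GRCm38.p6 were matched for 2 of the 7, Ass1 and Odc1, both higher in osteoclasts. They are shown from 250 to 80 bases before the RefSeq start, a window that ends before the GENCODE start as well: chr2:31470020-31470190 for Ass1 and chr12:17544623-17544793 for Odc1, both on the plus strand. Capitals mark GC boxes.
Ass1: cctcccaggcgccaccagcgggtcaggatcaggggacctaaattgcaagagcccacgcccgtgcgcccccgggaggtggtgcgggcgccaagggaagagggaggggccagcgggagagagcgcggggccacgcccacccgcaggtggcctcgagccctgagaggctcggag
Odc1: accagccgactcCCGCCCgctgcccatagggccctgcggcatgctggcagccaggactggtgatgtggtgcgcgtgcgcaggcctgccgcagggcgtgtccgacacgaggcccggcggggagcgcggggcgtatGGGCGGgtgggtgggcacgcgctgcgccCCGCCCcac
Both strands were searched for the GC box GGGCGG, the E-box CACGTG, the CRE TGACGTCA, the AP-1 site TGANTCA, the NF-kB site GGGA, any base, TTTCC, and the C/EBP site TTGCGCAA. The Odc1 window held 3 GC boxes, a motif found in 19.6% of 32851 such windows, and no other of these motifs. The Ass1 window held none. The E-box was found in 3.41% of windows, AP-1 in 4.70%, CRE in 0.502%, NF-kB in 0.244% and C/EBP in 0.107%. A match is a description of letters, and its absence says nothing about the factor.

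Human genes named like 5 of the 7 were read in the MDA-MB-231 pair, with 1 library per condition, no replicate check and totals of 6878212 counts in olaparib and 7472981 in DMSO. ASS1 had 110 counts in olaparib and 41 in DMSO, a log2 ratio of 1.56 (95% counting interval 1.03 to 2.11). SLC7A2 had 144 counts in olaparib and 380 in DMSO (-1.27, interval -1.55 to -0.99), and ODC1 had 876 in olaparib and 1376 in DMSO (-0.52, interval -0.64 to -0.40). ARG2 had 39 counts in olaparib and 67 in DMSO (-0.65, interval -1.26 to -0.06). ASL had 123 counts in olaparib and 104 in DMSO, and its interval, -0.01 to 0.77, includes 0. Over 13285 genes with a mean of at least 10 counts the median log2 ratio was -0.05, and 30.7% of them lay 1 log2 or more from 0. NOS2 and ARG1 had no row among the human counts used here.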

How the data were processed

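RNA sequencing counts of 6 mouse and 2 human libraries were used. The authors deposited counts of reads for each gene symbol. The submitters' processing notes name STAR 2.6.0c and featureCounts 1.6.2, and as builds mm10 and hg19, without saying what each did. The tables carry the word normalized, but their values are whole numbers with unequal totals and median-ratio size factors of 0.87 to 1.19 in the mouse libraries, so they were analysed as raw counts.

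Mouse genes were fitted with edgeR 4.0.16 under R 4.3.3: a two-sided quasi-likelihood test with TMM scaling, filterByExpr at a minimum count of 10 and a term for group, and Benjamini-Hochberg adjustment over 13247 genes and calls at an adjusted p below 0.05. Adjusted p-values in the text are from this test, except those given for a call lost without a library. Those are from the same test refitted without that library, with the filter and the adjustment redone. "Rose" and "fell" are used for called genes. CPM are TMM-scaled. SE is the log2 fold over the root of F. The script was tested on simulated data.

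Lengths, coordinates and overlaps come from GENCODE M21 (GRCm38, the assembly of mm10); no source used here names the annotation behind the counts. Counting intervals are exact conditional binomial intervals at 95%. Beside the 7 genes, the text names the up to 3 called genes of largest fold per direction and list (2 of them are not reported here), Nos1, Nos3, Gch1, Slc7a1, Azin1 and the 2 nearest genes to each; Oat, Cps1, Chil3, Vti1b, Gm48780, Gm26584, Malat1 and the neutrophil markers were named after their values were seen. Members and lists were chosen with earlier results of these data known. Alternatives were other scalings, filters, DESeq2 1.42.0, limma 3.58.1, leaving out libraries, and the replicate number as a block.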

Additional observations from a re-analysis of the deposited data

How the results depend on the processing

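Calls over all genes depend on scaling. With TMM, the genes called higher in osteoclasts numbered 4281 and the genes called lower in osteoclasts 4162. Equal totals gave 2625 and 6445, and the deposited scale 1800 and 3790; these scalings moved the median gene by -0.22 and -0.19 log2. The pathway genes called higher numbered 24 with TMM, 12 with equal totals and 7 on the deposited scale. Leaving out 1 library at a time gave 3975 to 4367 genes higher and 3747 to 4151 lower, and 20 to 28 pathway genes higher and 12 to 16 lower. RLE and upper-quartile scaling, both filters, DESeq2 and limma kept these counts within 1.5 times. Leaving out macrophage library 1 and osteoclast library 2 together, chosen after seeing the data, gave 26 pathway genes higher and 16 lower. Of the named genes, Qdpr turned sign to -0.02 with equal totals, and Slc3a2 to -0.03 with equal totals and to -0.0012 on the deposited scale; the 41 list genes that met the naming rule gave 626 of 654 comparisons with the same direction and call.

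The 7 genes kept their direction under each alternative that gave a value. With limma and a prior count of 5, the log2 fold was 10.02 for Nos2 and 1.70 for Arg2, whose macrophage counts are few. Under the stricter filter Arg2 was not tested. Leaving out 1 library gave 11.12 to 11.42 for Nos2 and 7.55 to 7.76 for Arg1. Same-numbered osteoclast and macrophage libraries deviated together only weakly (correlations 0.051, 0.063 and 0.139), though each osteoclast library correlated best with its own number, so the numbers were not taken as pairs. With the replicate block 4237 genes were higher and 4114 lower, and 24 pathway genes higher and 16 lower. Few macrophage counts limit the folds of Nos2 and Arg2 most.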
